A study of Bos taurus with 8 samples.

Results

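The genes examined here were 10 chemokines and inflammatory cytokines of cattle, namely IL6, LIF, IL8, CXCL2, CXCL5, CXCL12, CCL2, CCL5, IL1B, and TNF. They were chosen by name, with earlier results of these data known. A gene was followed through every non-control array probe whose accession had the symbol of the gene in RefSeq (IL8 is written here for CXCL8). A probe was matched for 9 of the 10 genes, 1 probe each, among 21475 probes in all, and CXCL12, for which none was matched, was not analysed here. Probes whose accession had no RefSeq name were not searched by gene name. A gene without a matched probe may therefore be on the array, and a matched gene may have further probes. Of these 9 genes, 7 were bright enough to be tested, as were 17622 of all probes.

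The RNA came from primary cultures of muscle cells isolated from the semitendinosus muscle of 15-month-old bulls of the beef breeds Limousin, written LIM, and Hereford, written HER, and of the dairy breed Holstein-Friesian, written HF. All cultures were proliferating and were harvested at 80% confluence. Each of 8 two-colour arrays carried a beef breed and HF in competition, 4 arrays with HER in Cy3 and HF in Cy5, and 4 with LIM in Cy5 and HF in Cy3. The cultures had been enriched for myoblasts by repeated preplating, which leaves other cell types of muscle in the flask. Because 4 bulls of each breed gave the cultures and HF was on all 8 arrays, the LIM and HER comparisons shared their HF bulls. Breed, slide, and dye orientation changed together, so a difference between the comparisons cannot be told apart from a difference of slide or dye.

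Chemokines are small secreted proteins that attract leukocytes along a gradient, those of the CC class (CCL2, CCL5) mainly monocytes and lymphocytes and those of the ELR-positive CXC class (IL8, CXCL2, CXCL5) mainly neutrophils. IL1B and TNF are inflammatory cytokines that act through NF-kB, a transcription factor that in turn raises many chemokine genes, whereas IL6 and LIF belong to a cytokine family that signals through gp130, JAK kinases, and STAT3. In injured muscle these proteins come from infiltrating leukocytes and from resident cells, and cultured satellite cells and fibroblasts are known to secrete CCL2, IL8, and IL6.

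Values are log2 ratios of beef breed over HF, so that a negative value means a lower level in the beef breed. A probe was counted as well above background in a channel by the mark of the scanner software, and it was tested where this held in at least 4 of the 16 channels. A gene was called where the Benjamini-Hochberg adjusted p of limma, taken over all probes tested, was at most 0.05 and the fold change at least 1.3. Errors are SD over the 4 arrays of a comparison unless named otherwise. The level in bulk RNA does not separate fewer cells of a type from less RNA per cell.

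Relative to HF, several cytokine and chemokine genes were lower in the cultures of the beef breeds. CCL2, the main attractant of monocytes, was lower by 4.69-fold in LIM and 4.35-fold in HER, and CXCL5, an attractant of neutrophils, was lower by 3.3-fold and 2.58-fold. CXCL2 was also called lower in LIM, and IL6 and IL1B were called lower in HER. In all, 3 of the 7 tested genes were called lower in LIM and 4 of 7 in HER, and none was called higher in either. The HER count stayed at 4 with the replicate number as a block, where IL6 (limma adjusted p = 0.0563) was lost and CXCL2 (0.041) was gained, and fell to 0 without HER replicate 1 or 2 and to 1 without HER replicate 3. The share of all probes called in HER was 24.4% with that block, and 8.94%, 8.67%, and 15.1% without HER replicate 1, 2, and 3. Over all tested probes 18.3% were called lower in LIM and 14% in HER, and 34.4% and 24.4% were called in either direction. The median log2 ratio of the 7 genes was -1.44 in LIM and -1.24 in HER, against -0.01 and -0.06 over all tested probes. Because the genes were chosen with earlier results of these data known, that contrast is no independent evidence. In the mean of both beef breeds, in which a dye effect of a probe cancels, 5 of 7 genes (CCL2, CXCL5, IL6, CXCL2, and CCL5) were called lower, beside 20.4% of all probes called lower and 38.1% called in either direction.

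**Figure D1:**
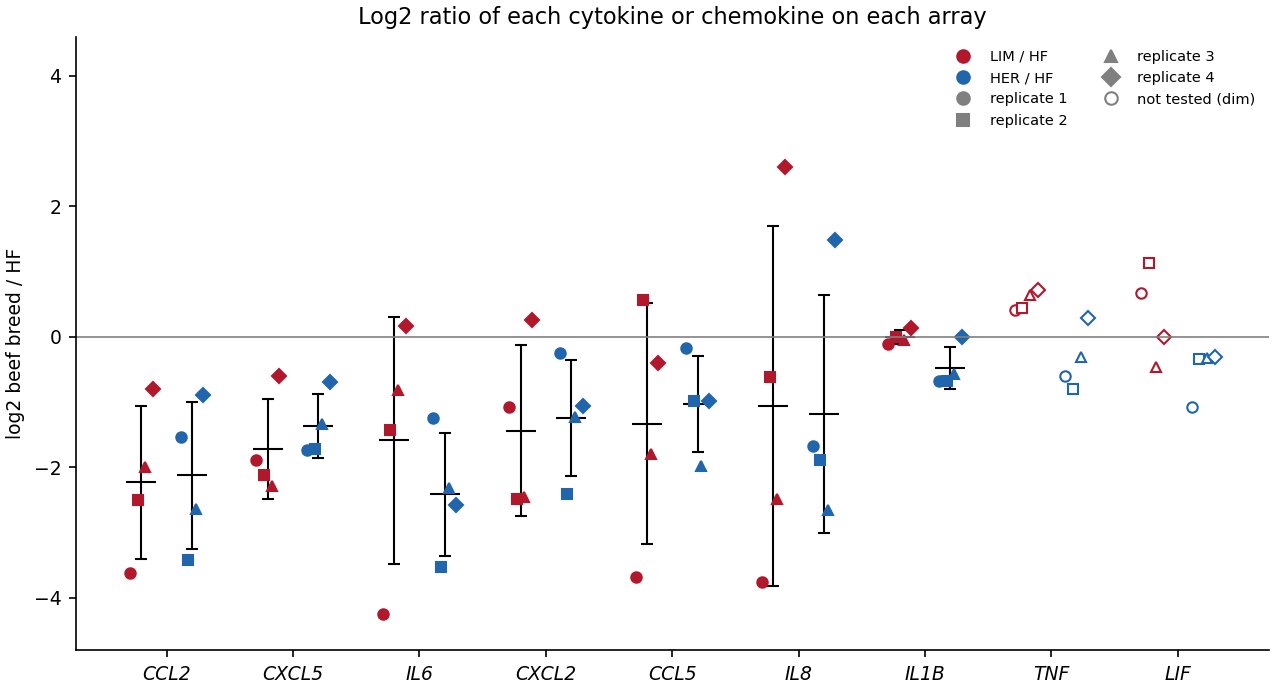
Log2 ratio of beef breed over HF (y axis) of the 9 genes with a matched probe (x axis) on the 4 LIM arrays (red) and 4 HER arrays (blue), with a symbol for each replicate number, and black bars for mean and SD of the tested genes. All points of CCL2 and CXCL5 lie below 0, whereas the IL8 points of replicate 4 lie at 2.60 and 1.48, above the other 6. Hollow symbols mark TNF and LIF, which were too dim to be tested.

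Of the CC chemokines, CCL2 had log2 ratios of -3.62, -2.50, -2.00, and -0.80 on LIM arrays 1 to 4. On HER arrays 1 to 4 its log2 ratios were -1.54, -3.42, -2.64, and -0.89. Every array thus put CCL2 lower in the beef breed, with the smallest difference on the replicate 4 array of each comparison. Of all tested probes, 17% were lower on 8 of 8 arrays. The processed signal of HF, the background-subtracted and dye-normalized intensity of the channel, ran from 13383 to 32709 on the LIM arrays and from 8031 to 24835 on the HER arrays. That of LIM ran from 1725 to 8194 and that of HER from 2323 to 5090, so the HF and beef channels did not overlap on either slide. The share of all probes without such an overlap was not computed, here or for CXCL5 and IL6. The mean log2 ratio was -2.23 ± 1.17 in LIM (n = 4, limma adjusted p = 0.00948) and -2.12 ± 1.13 in HER (n = 4, limma adjusted p = 0.0184). The HER call was lost without HER replicate 1, 2, or 3, with log2 values from -2.53 to -1.69 over the analyses that leave out 1 array. In the mean of both breeds CCL2 was 4.52-fold lower (log2 -2.18, 95% confidence interval -2.97 to -1.38, limma adjusted p = 0.00148), a call kept in all 22 alternative analyses, as was that of CXCL5 and of IL6. With both arrays of each replicate number averaged, the limma adjusted p of the mean was 0.01 for CCL2 and 0.00873 for CXCL5.

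CCL5, an attractant of T cells and monocytes, went in both directions on the LIM arrays. Its log2 ratios were -3.68, 0.57, -1.80, and -0.40 on LIM arrays 1 to 4, and those on HER arrays 1 to 4 were -0.17, -0.98, -1.98, and -0.98. It was lower on 3 of 4 LIM arrays and on 4 of 4 HER arrays. The mean was -1.33 ± 1.84 in LIM (limma adjusted p = 0.116) and -1.03 ± 0.74 in HER (limma adjusted p = 0.232), and neither was called, although the LIM ratio was called without LIM replicate 2. In the mean of both breeds CCL5 was called 2.26-fold lower (limma adjusted p = 0.0488). That call lay close to the threshold and was lost in 14 of 22 alternative analyses, among them those that leave out any 1 HER array, LIM replicate 1, or LIM replicate 3, with log2 values from -1.49 to -0.72 over all 22. It was also lost in all 3 other background treatments (log2 -0.72 to -1.06).

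**Figure D2:**
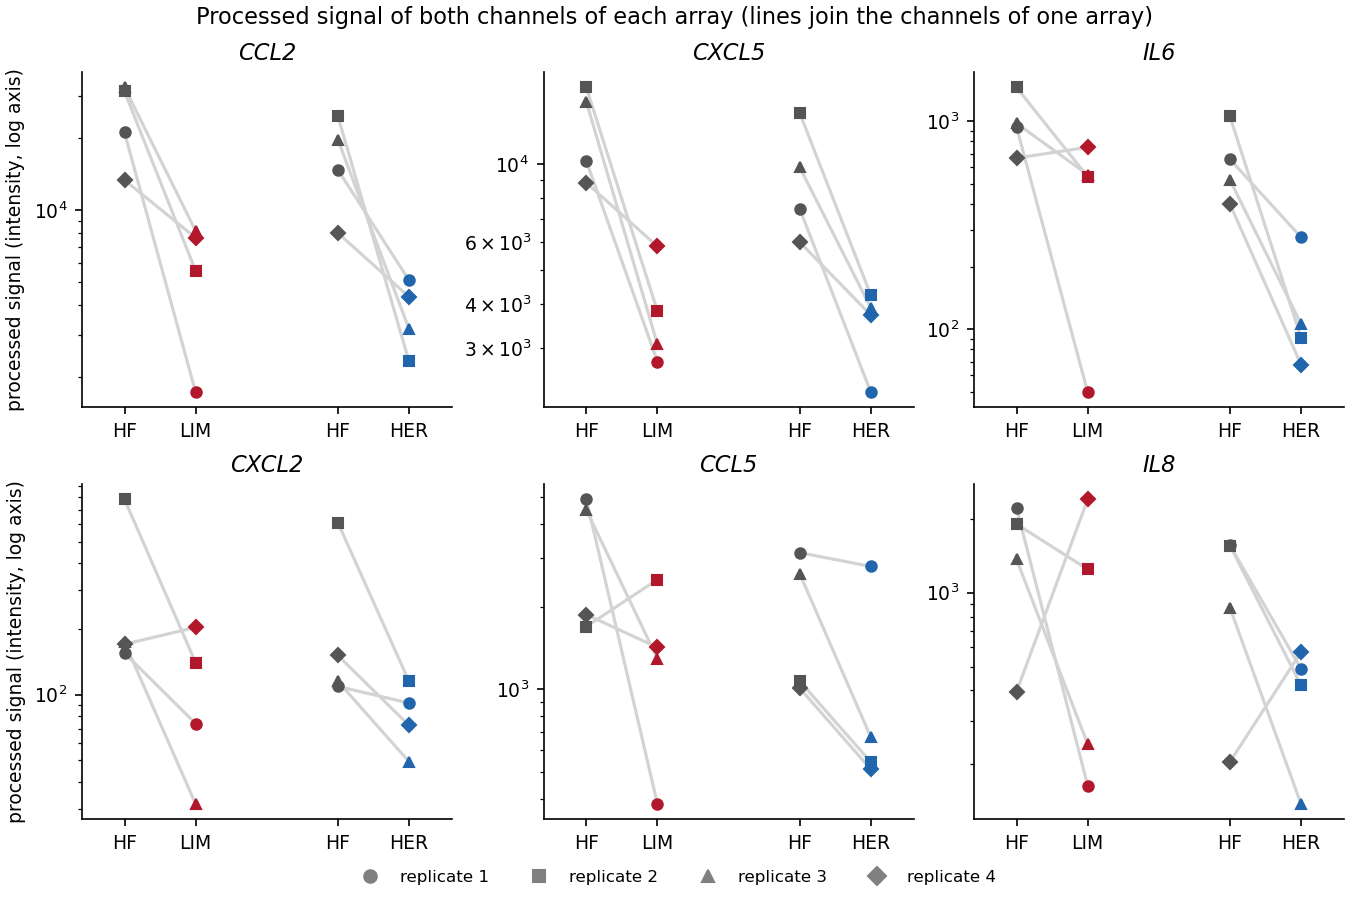
Processed signal (log axis) of the HF channel (grey) and the beef breed channel (LIM red, HER blue) of each array for the 6 genes well above background in all 16 channels, with a line joining the channels of 1 array and a symbol for each replicate number. For CCL2 and CXCL5 every line falls from HF to the beef breed, and for IL8 the lines of replicate 4 rise, from 396 to 2398 in LIM and from 205 to 574 in HER.

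Of the CXC chemokines, CXCL5 had the narrowest spread. Its log2 ratios were -1.89, -2.11, -2.29, and -0.60 on LIM arrays 1 to 4 and -1.73, -1.72, -1.33, and -0.69 on HER arrays 1 to 4. CXCL5 was lower on every array, as were 17% of all tested probes, and again least so on the replicate 4 arrays. The HF signal lay between 6008 and 16495 over all arrays, and the beef signal between 2253 and 5841, without overlap. The mean log2 ratio was -1.72 ± 0.77 in LIM (limma adjusted p = 0.00282) and -1.37 ± 0.49 in HER (limma adjusted p = 0.0132), and in the mean of both breeds it was -1.54 (2.91-fold lower, limma adjusted p = 0.000597). The HER call was lost without HER replicate 1 or 2. RefSeq lists CXCL6 among the synonyms of this bovine gene.

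CXCL2, another attractant of neutrophils, was well above background in all 16 channels. Its log2 ratios were -1.07, -2.48, -2.46, and 0.26 on LIM arrays 1 to 4 and -0.25, -2.41, -1.23, and -1.06 on HER arrays 1 to 4. LIM replicate 4 was the array on which CXCL2 was not lower. The mean was -1.44 ± 1.31 in LIM, called at a limma adjusted p of 0.0465, and -1.24 ± 0.89 in HER, not called at 0.0906. The LIM call was lost in 13 of 21 alternatives, among them those without HER replicate 1, 3, or 4 or LIM replicate 1, 2, or 3, and HER was called without LIM replicate 4. The mean of both breeds was 2.53-fold lower (log2 -1.34, limma adjusted p = 0.0123). With 3 other background treatments that value was -0.43 to -0.79, and the call was lost in 1 of them, normexp on backgrounds as measured, whereas the LIM call was lost in all 3 (log2 -0.67 to -0.83).

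IL8, the classical neutrophil chemokine, did not pass the test in any comparison. Its log2 ratios were -3.75, -0.61, -2.49, and 2.60 on LIM arrays 1 to 4 and -1.67, -1.89, -2.65, and 1.48 on HER arrays 1 to 4. The first 3 arrays of each comparison were negative and the replicate 4 array was positive. On LIM replicate 4 the LIM signal of 2398 was the highest of the 4 LIM cultures and the HF signal of 396 the lowest of that slide, and on HER replicate 4 the HER signal of 574 and the HF signal of 205 were likewise the highest and the lowest of their 4. The mean was -1.06 ± 2.76 in LIM (limma adjusted p = 0.428) and -1.18 ± 1.83 in HER (limma adjusted p = 0.401). For the mean of both breeds the interval of -2.73 to 0.48 holds both a large decrease and no difference, and without LIM replicate 4 that mean was called lower. Without both arrays of replicate 4, an analysis chosen after the values were seen, IL8 was called lower in LIM (log2 -2.29, limma adjusted p = 0.0195) and in HER (log2 -2.07, limma adjusted p = 0.0335).

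IL8, CXCL5, and CXCL2 lie within 6 consecutive protein-coding genes in the RefSeq order of the bovine genome, with LOC534181, PPBP, and PF4 between them, for which no probe was matched. CCL5 and CCL2 lie in a longer stretch of 25 coding genes. CCL8 and CCL11, the neighbours of CCL2, are chemokines as well. CCL8 was well above background in 3 LIM channels, 1 HER channel, and 0 of 8 HF channels, and it was not called (limma adjusted p = 0.122 in LIM and 0.771 in HER), and CCL11 was well above background in 0 of 16 channels.

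Of the gp130 cytokines, IL6 was called in HER. Its log2 ratios were -1.24, -3.53, -2.31, and -2.57 on HER arrays 1 to 4, and -4.24, -1.43, -0.82, and 0.17 on LIM arrays 1 to 4. All HER arrays were low, whereas the LIM arrays covered the whole span from a large decrease to no decrease. The HF signal ran from 400 to 1056 on the HER arrays and from 666 to 1454 on the LIM arrays, and the HER signal ran from 67.6 to 277, below every HF value. The LIM signal ran from 49.8 to 750, a range of 15.1-fold between 4 cultures of 1 breed, the lowest on LIM replicate 1. The mean was -2.41 ± 0.94 in HER (limma adjusted p = 0.0277) and -1.58 ± 1.89 in LIM (limma adjusted p = 0.0847, not called). In the mean of both breeds IL6 was 3.99-fold lower (log2 -1.99, 95% confidence interval -3.02 to -0.97, limma adjusted p = 0.00726). The HER call was lost with the replicate block (limma adjusted p = 0.0563) and on leaving out any 1 HER array, with log2 values from -2.80 to -2.04 over the analyses that leave out 1 array, and IL6 was called lower in LIM without LIM replicate 4. With the other background treatments IL6 was at -0.71 to -1.83 in HER, where 1 of the 3 lost the call, and at -0.85 to -1.50 in the mean of both breeds, where none did. LIF, the other gp130 cytokine, was well above background in 0 of 16 channels, with processed signals from 3.37 to 17.6, and has only an upper bound in every group.

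Of the cytokines that act through NF-kB, IL1B was close to background. It was well above background in all 4 LIM channels, 1 of 4 HER channels, and 7 of 8 HF channels. Its log2 ratios were -0.68, -0.67, -0.57, and 0.00 on HER arrays 1 to 4 and -0.11, 0.00, -0.05, and 0.14 on LIM arrays 1 to 4. The decrease was thus seen on the first 3 HER arrays, whose HER signals of 13.7 to 17.5 were not well above background. IL1B was called in HER (log2 -0.48 ± 0.32, limma adjusted p = 0.0322) and not in LIM (log2 -0.01 ± 0.11, limma adjusted p = 0.969). The HER call was lost in 10 of 21 alternatives, among them those without HER replicate 1, 2, or 3 or LIM replicate 2 or 3, and the log2 value ran from -0.64 to -0.01. All 3 other background treatments lost that call, with log2 values of -0.01 to -0.11. TNF was well above background in 2 of 16 channels, both of LIM, and was not tested. Its processed signals were 13.3 to 18.0 in LIM, 6.59 to 8.66 in HER, and 5.95 to 13.5 in HF.

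No gene was called in the difference between the LIM and HER ratios, beside 0.233% of all probes. At an unadjusted p of at most 0.05, limma called 1 of the 7 genes, IL1B (difference 0.47, interval 0.04 to 0.90, limma adjusted p = 0.29), beside 14.1% of all probes, and the methods' t-test called 1 beside 12.1%. The count of 1 in 7 is near the share over all probes. For the genes with wide spreads the intervals were broad, from -1.22 to 2.89 for IL6 and from -3.09 to 3.33 for IL8, on the log2 scale. For CXCL5 the interval was narrower, from -1.28 to 0.56, and for CCL2 it was -1.70 to 1.48.

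The spread of the ratios came with a spread of both channels. In HF, IL8 varied 5.57-fold on the LIM arrays and 7.59-fold on the HER arrays, with the same order of replicate numbers on both slides, from replicate 1 as the highest to replicate 4 as the lowest. CXCL2 in HF varied 5.04-fold and 5.6-fold, and replicate 2 was the highest on both slides, with signals of 781 and 611 against at most 174 and 151 in the other HF samples. The replicate 4 HF sample was the lowest on both slides for IL6, IL8, CXCL5, CCL2, and IL1B. Which HF bull was on which array is not given in the sources used here. In the beef channels CCL5 varied 6.54-fold over the LIM cultures and 5.46-fold over the HER cultures, more than in HF (2.9-fold and 3.11-fold), whereas CXCL5 varied about as much in LIM (2.12-fold) and HER (1.88-fold) as in HF (1.86-fold and 2.32-fold).

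**Figure D3:**
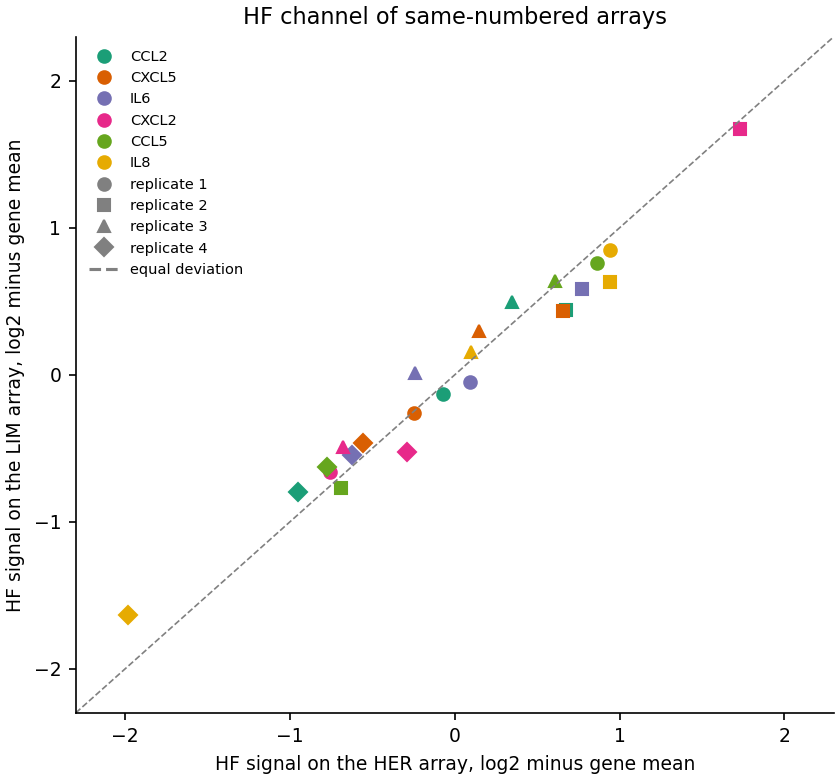
HF signal of 6 genes on the HER array (x axis) and on the LIM array (y axis) of the same replicate number, as log2 minus the mean of the gene over the 4 arrays of that slide, with a colour for each gene and a symbol for each replicate number. The points lie near the dashed line of equal deviation, with IL8 of replicate 4 at the lower end and CXCL2 of replicate 2 at the upper end.

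Among 34 further ligands of the cytokine and chemokine families, 16 were tested. In LIM 2 were called higher and 5 lower, and in HER 1 was called higher and 3 lower, with median log2 ratios of -0.05 and -0.19, near those of all probes. For all tested probes the shares called were 34.4% in LIM and 24.4% in HER, with 18.3% and 14% called lower. IL1RN, the natural antagonist of the IL-1 receptor, was lower in LIM (log2 -1.30 ± 0.78, limma adjusted p = 0.0375) and in HER (log2 -1.81 ± 1.08, limma adjusted p = 0.0169), and 1 of 3 other background treatments lost each call, with values of -0.68 to -1.49 in HER. OSM, a gp130 cytokine related to LIF and IL6, was lower too (log2 -1.38 ± 0.50 and -0.75 ± 0.33), as was the anti-inflammatory cytokine IL10 (-0.45 ± 0.08 and -0.45 ± 0.19). With the 3 other background treatments OSM was at -0.41 to -0.68 in LIM and at -0.14 to -0.30 in HER, where all 3 lost the call, and IL10 lost both calls in all 3. IL15, a cytokine known to be made by muscle, was higher by 2.02 ± 0.94 in LIM (limma adjusted p = 0.028) and by 2.12 ± 1.70 in HER (limma adjusted p = 0.0323), but HF was well above background in 3 of 8 channels, so these differences rest on a mostly unmeasured HF level. With the other background treatments IL15 was at 0.38 to 0.61 in LIM, where 2 of 3 lost the call, and at 0.13 to 0.83 in HER, where 1 did. Among the further chemokines, CXCL3 was at 0.62 ± 0.84 in LIM and 0.04 ± 1.18 in HER, and CXCL10 at 0.06 ± 0.22 and 0.13 ± 0.10, neither called. CCL3 was called lower in LIM (log2 -1.22 ± 1.05, limma adjusted p = 0.0257) and not in HER (log2 -1.09 ± 0.40, limma adjusted p = 0.051). The 2 called higher in LIM were IL15 and CCL24, and the 1 called higher in HER was IL15. CCL24 was well above background in 5 beef channels and 0 HF channels, so it was tested only through the beef side. The higher calls thus rest on HF levels that were mostly or wholly unmeasured.

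Of 18 receptors 6 were tested, and none was called in LIM or in the mean of both breeds, beside 34.4% and 38.1% of all probes. The median log2 ratio of the 6 was 0.23 in LIM and -0.04 in HER. The log2 ratio of IL6R, the ligand-binding receptor of IL6, was -0.13 ± 0.76 in LIM and 0.11 ± 0.27 in HER, and that of LIFR was 0.18 ± 0.58 and -0.05 ± 0.87, neither called. CXCR4, the receptor of CXCL12, was at 1.44 ± 1.48 in LIM (limma adjusted p = 0.0729) and 0.33 ± 1.07 in HER (limma adjusted p = 0.679). No probe was matched for IL6ST, which encodes gp130, or for ACKR3, the other receptor of CXCL12.

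The counts of the next lists stand beside 34.4% of all tested probes called in LIM and 24.4% in HER. In the NF-kB pathway 14 of 22 genes were tested, of which 1 was called higher and 2 lower in LIM, and 2 lower in HER, with medians of -0.08 and -0.15. NFKBIB, an inhibitor of NF-kB, was called lower in LIM (log2 -1.45 ± 0.30) and in HER (log2 -0.94 ± 0.38). NFKBIZ was called higher in LIM (log2 1.84 ± 0.23, limma adjusted p = 0.00564) and not in HER (log2 1.08 ± 1.14, limma adjusted p = 0.0574). NFKBIA was called lower in HER only (log2 -0.94 ± 0.72, limma adjusted p = 0.0359), and MYD88 in LIM only (log2 -0.39 ± 0.25, limma adjusted p = 0.0338). Of 15 JAK and STAT pathway genes 8 were tested, of which 2 were called higher and 1 lower in LIM and 1 higher in HER, none of them in both, with medians of -0.41 and -0.06. Among 21 known targets of these cytokines 15 were tested, of which 2 were called higher and 4 lower in LIM, and 1 higher and 2 lower in HER, with medians of 0.19 and -0.16. NOS2, the inducible nitric oxide synthase, was lower (log2 -1.51 ± 0.21 in LIM and -0.67 ± 0.35 in HER), and ATF3, a stress-induced transcription factor, was higher (0.71 ± 0.15 and 0.44 ± 0.14). ICAM1 was called higher in LIM (log2 2.31 ± 0.79, limma adjusted p = 0.00751) and not in HER (log2 0.95 ± 1.37, limma adjusted p = 0.176). PTGS2 (log2 -1.67 ± 1.64, limma adjusted p = 0.0424) and JUN (log2 -0.59 ± 0.21, limma adjusted p = 0.0262) were called lower in LIM and not in HER. HAS2, a hyaluronan synthase, was lower in LIM (log2 -2.09 ± 1.85, limma adjusted p = 0.0321). In HER it was at log2 -2.77 ± 0.97 (limma adjusted p = 0.0171). None of the 4 HER channels was well above background for HAS2, so that ratio rests on an unmeasured HER level. With the other background treatments HAS2 was at -0.62 to -0.82 in LIM and at -0.20 to -0.97 in HER, and 2 of 3 lost the call in each.

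**Figure D4:**
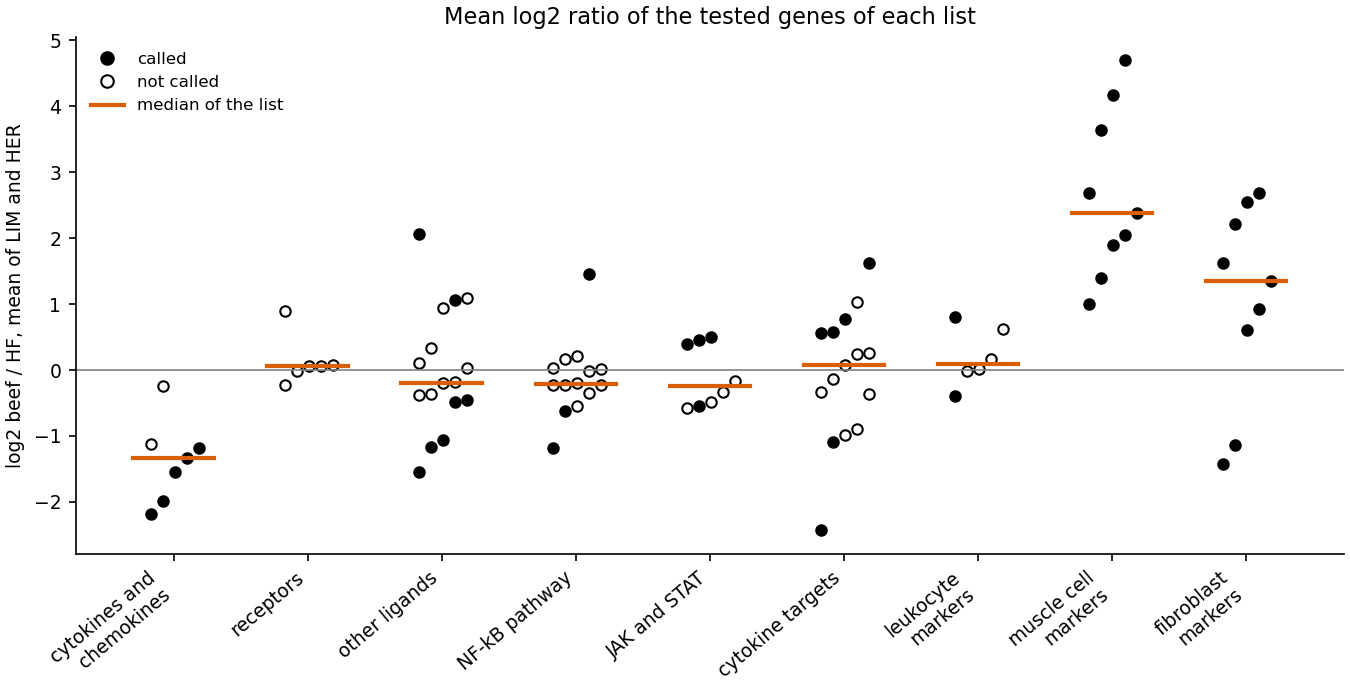
Mean log2 ratio of LIM and HER over HF (y axis) of the tested genes of 9 lists (x axis), each point 1 gene, filled where it was called in the mean of both breeds and hollow where it was not, with the median of each list in orange. The 7 cytokines and chemokines all lie below 0, with a median of -1.34, whereas the other ligands, the receptors, and the NF-kB, JAK and STAT, and target genes lie on both sides of 0, and the muscle markers lie at a median of 2.38. All lists were chosen with earlier results of these data known.

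Markers of other cell types were read beside these values, and beside the 34.4% of all tested probes called in LIM and 24.4% in HER. Of 14 leukocyte markers 9 had a matched probe and 6 were tested, of which 1 was called higher and 1 lower in LIM and 1 higher in HER, with a median log2 ratio of 0.09 in LIM and 0.17 in HER. ITGAM, CD3E, and AIF1 were well above background in 0, 1, and 2 of 16 channels. CD68, a macrophage marker that other cells also express, was called higher in LIM (0.68 ± 0.57) and in HER (0.94 ± 0.40), and both calls were lost in all 3 other background treatments (0.17 to 0.31 in LIM and 0.19 to 0.36 in HER). CD14 was at 0.08 ± 0.64 and -0.06 ± 0.65, not called. The summed signal of the leukocyte markers was 11950 to 16572 in LIM, 6782 to 13337 in HER, and 6697 to 12551 in HF, and the ranges of LIM and of HER overlapped that of HF. In such sums the brightest probes weigh most, here ITGB2, CD79A, and on some arrays LAPTM5, and HF is pooled over both slides. Of 9 muscle cell markers tested, 8 were called higher in LIM and 8 in HER, with medians of 2.56 and 2.19 (MYH3, embryonic myosin, 4.30 ± 0.68 and 4.05 ± 0.47). Their summed signal was 41183 to 118865 in LIM, 24643 to 111961 in HER, and 6739 to 36497 in HF, and all cultures expressed DES and MYOD1 well above background. Of 9 fibroblast markers, 5 were called higher and 1 lower in LIM, and 5 higher and 2 lower in HER, with COL3A1 at 3.00 ± 1.48 and 2.37 ± 1.26 and PDGFRA at -1.48 ± 0.44 and -1.36 ± 0.47, and summed signals of 364631 to 788527 in LIM, 279591 to 545909 in HER, and 55505 to 227611 in HF. COL1A1, COL1A2, and COL3A1 weigh most in those sums in LIM and HER. Of 4 endothelial markers tested none was called in LIM and 1, CLDN5, was called lower in HER, with medians of 1.60 in LIM and 0.40 in HER. KDR, TEK, and TIE1 had means above 0 in LIM (1.51, 2.23, and 1.69) and in HER (0.57, 0.24, and 0.97), none of them called. Of 4 smooth muscle markers 1 was called higher in LIM and 2 in HER, ACTA2 in both. The part of these cell type differences in the lower cytokine and chemokine values was not tested.

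The share of all probes well above background was 68.8% to 85.2% of a channel, and 0 spots were saturated. Lower calls made up 57.4% of all calls in HER, and 45.2% or 44.9% where the median intensities were normalized by loess after normexp with outlying backgrounds replaced or without background correction. A local background over 500 in red was measured around 38 spots of HER replicate 3, 11 of HER replicate 2, 14 of LIM replicate 1, and 5 of LIM replicate 4. With these backgrounds taken as measured into normexp and loess, 0 of all 17622 probes were called in HER, thus 0 genes of the 7. In the mean of both breeds 3 genes were called (CCL2, CXCL5, and IL6), beside 18.7% of all probes.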

How the data were processed

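Gene expression was measured on 8 two-colour Agilent arrays, grouped by the sample labels. The files deposited by the authors came from the scanner software (Feature Extraction 10.7.3.1) and give the intensity of each spot in Cy5 and Cy3, a processed signal per channel, marks for dim and outlying spots, and the log10 of Cy5 over Cy3 after the software's correction for background and dye. A deposited series table repeats these log10 values (largest difference 0). Age and the number of bulls come from the methods of the study, which tested by a t-test in GeneSpring.

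The log10 ratio was turned to log2 beef over HF, with the sign changed on HER arrays. Control and outlier spots were left out, and spots of a probe were averaged. A probe was well above background in a channel where at least 1 in 2 of its spots was so marked. All 8 arrays were fitted together with limma 3.58.1 in R 4.3.3 (lmFit, eBayes), 1 mean per comparison, after the scripts had been tested on simulated data. Names came from RefSeq (ARS-UCD2.0) through the accessions in the files, of which 7793 of 20693 were named, and only names and gene order were used from it. The genes and lists were chosen with earlier results of these data known, so they are no independent evidence. From each list those called in LIM and HER with the same sign were named, at most 4, with the receptors of IL6, LIF, and CXCL12. Other genes were named after their values were seen, and a result on 1 receptor in HER is not reported here. The alternatives were other background corrections and normalizations, other filters, tests, and weights, the replicate block, and leaving out each array. The labels call the 4 arrays of a comparison biological replicates, but HF bulls were shared between the comparisons, so the 8 arrays are not separate replicates on the HF side. The number of arrays limits the precision.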

Additional observations from a re-analysis of the deposited data

Results flagged for a closer look

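The log2 ratio of IL1B on HER replicate 4 lay apart from the other 3 HER arrays. Its gap to the nearest array was 0.849 of the range of the group, above the 95% critical value of Dixon's test for 4 values. A total of 14 groups of arrays were examined, and chance alone sets apart about 1 in 20. On that array the HER and HF signals of IL1B were both 18.5, and HER was well above background, whereas on the other HER arrays it was not.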

How the results depend on the processing

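For 116 results and 22 alternatives, 2465 values were computed, of which 2226 kept direction and side of the threshold, 199 lost and 31 gained a call, 9 counts moved, and 0 called values changed sign. The calls of IL6, CXCL5, and CCL2 in the mean of both breeds were kept in all 22, and that of CXCL2 in 21. With normexp and loess on backgrounds as measured, 0 genes were called in HER and 3 in the mean of both breeds, beside 0% and 18.7% of all probes. With the methods' t-test adjusted over all probes, 0 were called in LIM, 0 in HER, and 4 in the mean, beside 5.69%, 0.0113%, and 33.6% of all probes. By an unadjusted p, and by the methods' t-test unadjusted, 1 was called in the LIM and HER difference. Leaving out 1 array gave 2 to 4 calls in LIM, 0 to 5 in HER (0 without HER replicate 1 or 2, 1 without HER replicate 3), and 4 to 6 in the mean. The share of all probes called was then 21.5% to 39.8% in LIM, 8.67% to 30.9% in HER, and 33.2% to 42.3% in the mean. CXCL5 in HER was lost without HER replicate 1 or 2 and CCL2 in HER without HER replicate 1, 2, or 3. Over all probes, 4302 calls in HER became 0 with backgrounds as measured, 2 with the adjusted t-test of the methods, and 1576, 1527, and 2667 without HER replicate 1, 2, and 3. In LIM 6056 became 1003 with that test and 3796 without LIM replicate 3, and in the mean of both breeds 6722 became 3289 with backgrounds as measured. The 41 calls in the LIM and HER difference ranged from 0 to 2480. The cause was not tested.

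Same-numbered LIM and HER ratios had r of -0.236, 0.129, 0.305, and 0.54, and the main fit did not pair the arrays by number. The HF channels of the same number had r of 0.619 to 0.817 and other HF pairs at most 0.0165. The main p of the mean of both breeds thus treats as separate arrays whose HF channels went together by number. With both arrays of a number averaged, the limma adjusted p of that mean was 0.01 for CCL2, 0.00873 for CXCL5, 0.00712 for IL6, 0.0431 for CXCL2, and 0.0456 for CCL5. With the replicate block 3 genes were called in LIM, 4 in HER, and 5 in the mean of both breeds, beside 36.1%, 24.4%, and 39.8% of all probes. CCL5 in the mean was lost (limma adjusted p = 0.0643), IL8 in the mean was gained (0.0268, against 0.235 with a random block and 0.327 with the mean of each number), IL6 in HER was lost, and CXCL2 in HER was gained. With the number as a random block (consensus correlation 0.191), added after seeing the data, CCL5 in the mean was lost (limma adjusted p = 0.0794), and 4 genes were called, beside 36% of all probes. Averaging both arrays of a number, and leaving out both replicate 4 arrays, were also added after seeing the data. Dim signal limits IL1B, TNF, and LIF.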
